A study of Mus musculus with 2 samples.

Results

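The 8 genes described here encode 7 enzymes of cholesterol synthesis, Hmgcs1, Idi1, Fdps, Fdft1, Sqle, Lss and Cyp51, and Insig1, a feedback regulator of the same pathway. They were chosen by name, as well-known targets of the sterol regulatory element-binding proteins (SREBPs), and every probe set whose only gene symbol is one of them was taken. This gave 21 probe sets of 45037 that were not controls, and 8 of 18193 named genes. Transcript levels were measured in cerebral cortex on 2 Affymetrix arrays. One array held RNA mixed from 3 male mice titled as Gnmt knockouts (KO), and the other held RNA mixed from 3 wild-type males. All mice were 4 weeks old and of the 129/B6 background. Gnmt encodes glycine N-methyltransferase, which uses S-adenosylmethionine to methylate glycine. The genotype entry of the KO-titled sample reads wild-type, so the groups follow the titles, and the sources used here do not give the kind of knockout allele. With 1 array per genotype and no replicate, no difference could be tested, and every ratio below describes these 2 pools alone.

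Cells build cholesterol from acetyl-CoA through mevalonate, isoprenoid diphosphates, squalene and lanosterol. The brain depends on this pathway because plasma lipoproteins do not cross the blood-brain barrier, and demand is high while myelin is being laid down in the young animal. When sterols run low, SREBP2 is carried by SCAP from the endoplasmic reticulum to the Golgi, is cut there, and switches on the genes of the pathway together. INSIG proteins hold SCAP back when sterols are plentiful, and Insig1 is itself an SREBP target, which closes a feedback loop.

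Promoter sequences are shown for Hmgcs1, Insig1 and Cyp51, because Insig1 and Cyp51 had the highest and lowest ratios between the pools and Hmgcs1 had the most probe sets on one side. They run from 250 bases before to 50 bases after the transcription start and were taken from RefSeq (GRCm38.p6), which held 5 of the 8 genes. Fdps, Fdft1 and Sqle were not matched. Capitals mark motifs found on either strand: the sterol regulatory element core TCACNCCAC and its shorter form CACCCCAC, the NF-Y motif CCAAT, the Sp1 motif GGGCGG and the E-box CACGTG.
Hmgcs1, chr13:119690101-119690400, plus strand: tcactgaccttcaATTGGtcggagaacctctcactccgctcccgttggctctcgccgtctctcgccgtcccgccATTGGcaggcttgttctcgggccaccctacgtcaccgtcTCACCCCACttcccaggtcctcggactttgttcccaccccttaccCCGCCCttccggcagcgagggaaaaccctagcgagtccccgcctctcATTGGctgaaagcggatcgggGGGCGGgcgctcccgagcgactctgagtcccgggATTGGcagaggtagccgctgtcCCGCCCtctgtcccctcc
Insig1, chr5:28071162-28071461, plus strand: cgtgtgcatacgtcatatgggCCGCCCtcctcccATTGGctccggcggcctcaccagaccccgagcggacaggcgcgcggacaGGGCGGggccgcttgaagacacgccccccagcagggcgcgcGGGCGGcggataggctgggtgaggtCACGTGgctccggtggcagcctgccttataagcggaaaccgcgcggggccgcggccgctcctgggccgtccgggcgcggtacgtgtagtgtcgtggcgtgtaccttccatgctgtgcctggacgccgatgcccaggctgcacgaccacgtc
Cyp51, chr5:4104648-4104947, minus strand: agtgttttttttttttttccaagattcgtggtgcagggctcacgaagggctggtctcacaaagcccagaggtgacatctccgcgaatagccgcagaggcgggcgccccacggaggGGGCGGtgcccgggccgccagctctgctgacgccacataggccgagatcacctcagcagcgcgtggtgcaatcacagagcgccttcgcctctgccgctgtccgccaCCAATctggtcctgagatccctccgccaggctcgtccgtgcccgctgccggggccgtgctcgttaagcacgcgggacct

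The sterol element core was found in the Hmgcs1 window, from base -137 on the strand of the gene, with the shorter form lying inside it. The windows of Insig1, Cyp51, Idi1 and Lss did not hold these letters, which says nothing of looser forms of the element. Of all 32851 promoter windows in the table, 1.24% held the core and 2.87% the shorter form. NF-Y and Sp1 motifs were present in all 5 windows, beside 37.4% and 35.7% of all windows. They were also common among 60 genes of the related lists with a window, where 40 held NF-Y and 43 held Sp1. Hmgcs1 had 4 NF-Y and 3 Sp1 matches, Idi1 had 2 and 1, and Lss had 1 and 2. Cyp51 had 1 of each, while Insig1 had 1 NF-Y match, 3 Sp1 matches and the only E-box of the 5, a motif held by 7.15% of all windows. Of 60 genes with a promoter window among those listed below, 1 other held the sterol element core, Stard3, which encodes a cholesterol transporter of late endosomes. The matches are a description of sequence and were not tested as binding sites.

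Of the 8 genes, 7 lay within 1.5-fold between the pools, and the genes did not share a direction. Each gene is represented by its brightest probe set, and a probe set was used only where its signal reached a floor of 64.2 array units on both arrays. All 8 genes passed this floor. Ratios are log2 of the KO-titled over the wild-type signal, centred on the median of all probe sets above the floor. By this measure 1 of 8 genes was at least 1.5-fold lower in the KO-titled pool, and no gene (0 of 8) passed 1.5-fold upward. Over all 12251 measured genes these shares were 18.3% downward and 12.5% upward, so the members' counts were no larger than these shares would give. The median log2 ratio of the 8 genes was -0.28, with 3 above 0 and 5 below, and that of all measured genes was -0.06. Probe sets of one gene scattered with an SD of 0.58 on the log2 scale, or 1.49-fold, which is called probe set error and was estimated from the brightest pair of probe sets of 5375 genes. It leaves out the spread between mice. The ratios of 7 of the 8 genes were smaller than that SD.

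**Figure D1:**
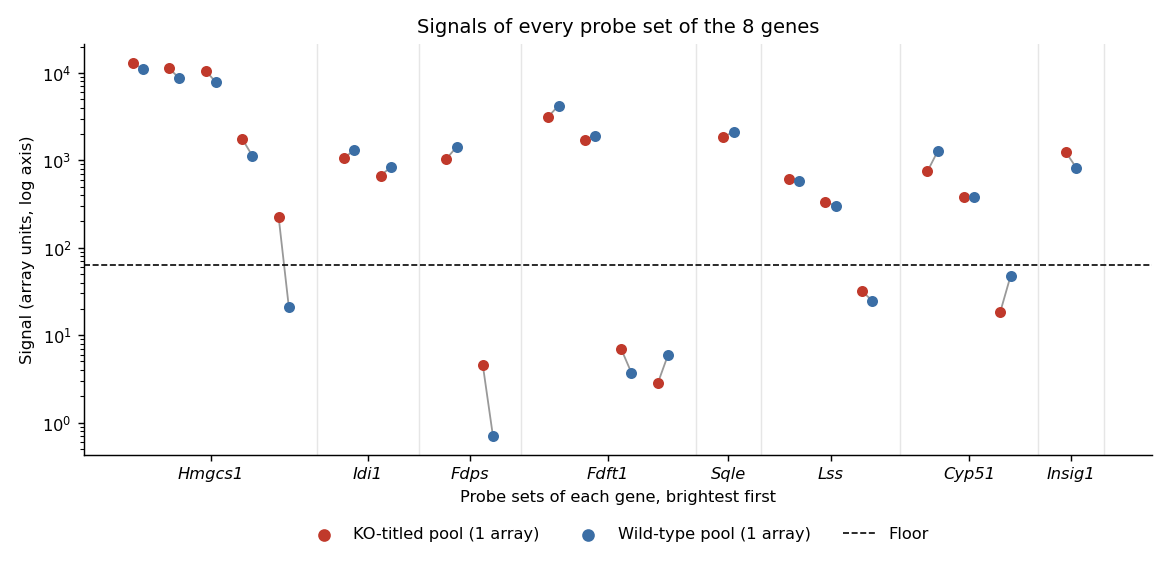
Signal in array units (log axis) of each of the 21 probe sets, with the KO-titled pool on the left of each pair and the wild-type pool on the right; each point is 1 array. Pairs above the dashed floor of 64.2 units lie close together, and the widest gap is at the dimmest Hmgcs1 probe set, at 225.9 units in the KO-titled pool and 21 units in the wild-type pool.

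Hmgcs1 encodes the cytosolic HMG-CoA synthase, which acts at the entry to the mevalonate pathway. It was higher in the KO-titled pool on all 4 probe sets above the floor on both arrays. The brightest gave 13096 units in the KO-titled pool and 11013 units in the wild-type pool, a log2 ratio of 0.24. The other 3 gave 11241, 10596 and 1763 units in the KO-titled pool, against 8645, 7805 and 1125 units in the wild-type pool. Their ratios were 0.37, 0.43 and 0.64, so the brightest probe set showed the smallest difference of the 4, and only the dimmest of them passed 1.5-fold. The brightest and second brightest both carry a suffix, and that of the second marks possible binding to other transcripts. With suffixed probe sets left out, the Hmgcs1 ratio was 0.43. The remaining Hmgcs1 probe set was above the floor in the KO-titled pool alone, at 225.9 units against 21 units in the wild-type pool, and was at least 3.49-fold higher there. Probe sets of a gene were hybridised with the same RNA and are not replicates of the genotype.

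Idi1, Fdps, Fdft1 and Sqle act one after the other between mevalonate and squalene epoxide, and all of them had ratios below 0 and within 1.5-fold. Idi1, the isomerase that supplies the allylic isoprenoid starter, gave 1062.6 units in the KO-titled pool and 1320.9 units in the wild-type pool. Its second probe set gave 670.1 units in the KO-titled pool and 834.9 units in the wild-type pool, and both had a log2 ratio of -0.33. The Idi1 probe sets thus differed from each other far less than the probe set error. Fdps makes farnesyl diphosphate, the branch point to sterols, dolichol, ubiquinone and prenylated proteins. It gave 1036.8 units in the KO-titled pool and 1417.1 units in the wild-type pool, a ratio of -0.46, while a second probe set was below the floor on both arrays.

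Fdft1, the squalene synthase gene, gave 3162.3 units in the KO-titled pool and 4233.2 units in the wild-type pool, a log2 ratio of -0.43. Its second measured probe set gave 1717.4 units in the KO-titled pool and 1918.3 units in the wild-type pool, a ratio of -0.17. The brightest carries a suffix that marks possible binding to other transcripts, and the second does not. A further pair of Fdft1 probe sets was below the floor on both arrays. Sqle, the squalene epoxidase gene and a second control point of the pathway, has 1 probe set, with 1832.7 units in the KO-titled pool and 2131.5 units in the wild-type pool. Its log2 ratio of -0.23 was the nearest to 0 among the brightest probe sets of these 4 enzymes.

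Lss, which folds squalene epoxide into lanosterol, was nearly level between the pools. Its brightest probe set gave 603.5 units in the KO-titled pool and 581.6 units in the wild-type pool, a log2 ratio of 0.04. The second gave 333 units in the KO-titled pool and 303.4 units in the wild-type pool, a ratio of 0.12, and the third was below the floor on both arrays. The sign for Lss turned with a floor at the 25th percentile and with no floor.

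Cyp51, the demethylase that acts on lanosterol, had the lowest ratio of the 8 genes, but its probe sets disagreed. The brightest gave 748.7 units in the KO-titled pool and 1269.6 units in the wild-type pool, 1.71-fold lower, with a log2 ratio of -0.77. The second brightest gave 376.9 units in the KO-titled pool and 378.2 units in the wild-type pool, a ratio of -0.02. The only 1.5-fold call among the 8 genes therefore rests on 1 probe set and is lost with the median of the Cyp51 probe sets, -0.40. The third Cyp51 probe set was below the floor in both pools. Of all measured genes, 11.8% had a lower ratio than the brightest Cyp51 probe set.

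Insig1, the retention protein that restrains SREBP processing, had the highest ratio. Its only probe set gave 1231 units in the KO-titled pool and 825 units in the wild-type pool, 1.48-fold higher, with a log2 ratio of 0.57. That lay just inside the 1.5-fold limit, at 0.58 on the log2 scale, and 86.9% of all measured genes had a lower ratio. The limit was passed with quantile normalization (0.71), loess (0.63) and a floor at the 60th percentile (0.62). Cyp51 was the nearest gene beyond the limit, and after Insig1 the nearest gene inside it was Fdps at -0.46.

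**Figure D2:**
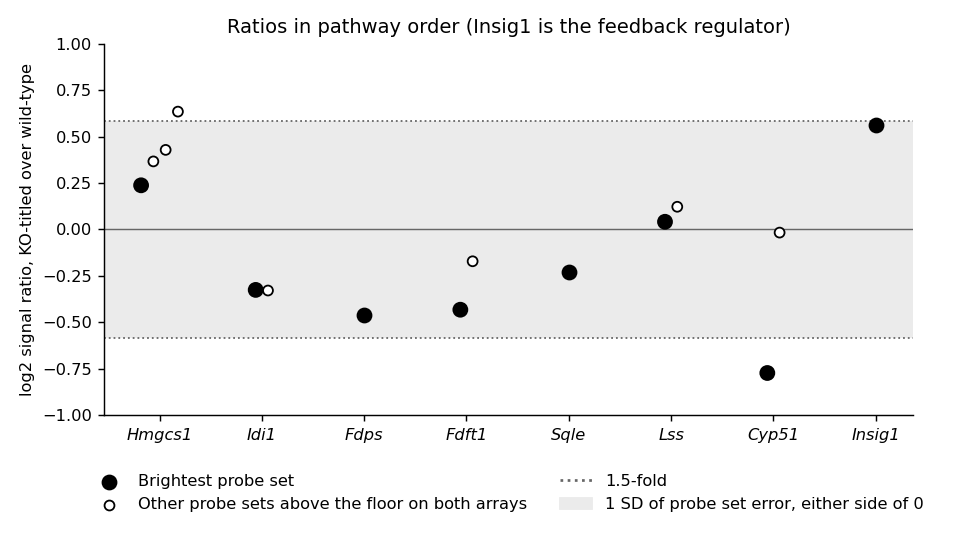
The log2 ratio of KO-titled over wild-type signal for the 7 enzymes in pathway order and for Insig1, with filled points for the brightest probe set and open points for other probe sets above the floor on both arrays. Hmgcs1 and Insig1 lie above 0, Idi1, Fdps, Fdft1 and Sqle lie below 0 inside the dotted 1.5-fold lines, and the brightest Cyp51 probe set alone lies below the lower line while its second lies at -0.02.

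Counted by probe set rather than by gene, the members showed no common direction. Of 15 probe sets above the floor on both arrays, 7 had ratios above 0 and 8 below, with a median of -0.02. One was at least 1.5-fold lower in the KO-titled pool, that of Cyp51, and 1 was at least 1.5-fold higher, that of Hmgcs1. Over all 20967 probe sets of 1 gene above the floor on both arrays, the shares past 1.5-fold were 18.1% downward and 16.5% upward. Of the 6 other member probe sets, 1 was above the floor in the KO-titled pool alone and 5 were below it on both arrays. Of the 8 genes, 3 rest on a single measured probe set: Fdps, Sqle and Insig1.

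The remaining enzymes of the pathway were also mostly within 1.5-fold. For each list below, the shares of all measured genes past 1.5-fold are the same 18.3% downward and 12.5% upward. Among other mevalonate enzymes, 1 of 4 measured genes passed 1.5-fold upward in the KO-titled pool and 0 downward, and the median log2 ratio was 0.20. Ggps1, which makes geranylgeranyl diphosphate for protein prenylation, was that gene, at 1096.5 units in the KO-titled pool and 551.8 units in the wild-type pool. Its ratio was 0.98, but its 4 probe sets ran from -0.62 to 0.98. Pmvk and Mvk, the kinases that phosphorylate mevalonate, had ratios of 0.45 and -0.55, the second with its other probe set at 0.54. Mvd, the decarboxylase that forms isopentenyl diphosphate, had -0.04.

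All 8 measured enzymes that act after lanosterol beside Cyp51 lay within 1.5-fold by their brightest probe sets, with a median of 0.06. Lbr, which encodes a sterol reductase of the inner nuclear membrane, and the reductase gene Hsd17b7 were highest at 0.45 and 0.27. The other measured Hsd17b7 probe set had 0.86. Dhcr7, the last reductase of one branch, and the isomerase gene Ebp were lowest at -0.52 and -0.19. Msmo1 encodes a methyl sterol oxidase of a later step than Cyp51. It gave 2491.5 units in the KO-titled pool and 2678 units in the wild-type pool, a ratio of -0.12. Sc5d, a desaturase gene, had -0.03 by its brightest probe set and -1.22 by another.

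The transcripts of SREBP and its carriers differed little between the pools. Srebf2, which encodes SREBP2, gave 949 units in the KO-titled pool and 1034.7 units in the wild-type pool, a log2 ratio of -0.14, with its other probe set at 0.02. Srebf1 had -0.27, Scap had 0.05 and Insig2, the second INSIG gene, 0.34. The site proteases that release SREBP, Mbtps1 and Mbtps2, had 0.48 and 0.23. On this list 2 of 9 measured genes passed 1.5-fold downward and 0 upward, around a median of 0.05. Over all measured genes these shares were 18.3% and 12.5%. The lower genes were Rnf139, a ubiquitin ligase of the endoplasmic reticulum that binds INSIG proteins, at -0.89, and Ubxn8, a UBX domain protein gene, at -0.73. Ubxn8 was put on the list in error for another UBX domain gene, and the count and median include it. Activity of SREBP proteins, which depends on cleavage, is not measured by these arrays.

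A looser list of other genes tied to SREBP2 had more members past 1.5-fold than the 8 genes had, and in both directions. In the KO-titled pool 4 of its 7 measured genes passed 1.5-fold upward and 1 downward, around a median of 0.70. Stard4, a sterol carrier gene, gave 979.8 units in the KO-titled pool and 332.2 units in the wild-type pool. Its ratio was 1.55 by that probe set, yet its other probe sets were nearly level, at -0.01 and 0.04. Lpin1, a phosphatidate phosphatase gene, had 0.81 with its other probe set at 0.41. Npc1l1, a sterol uptake gene of the intestine, had 0.79 at no more than 180.3 units, and the transcription factor gene Nfe2l1 had 0.70, each on 1 probe set. Acsl3, an acyl-CoA synthetase gene, was lower at -1.10, and its 3 probe sets ran from -1.10 to -0.27. The median of this list was 0.18 with the median of all probe sets. By second brightest probe sets it was 0.20, which leaves out genes with 1 probe set, Npc1l1 and Nfe2l1 among them.

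**Figure D3:**
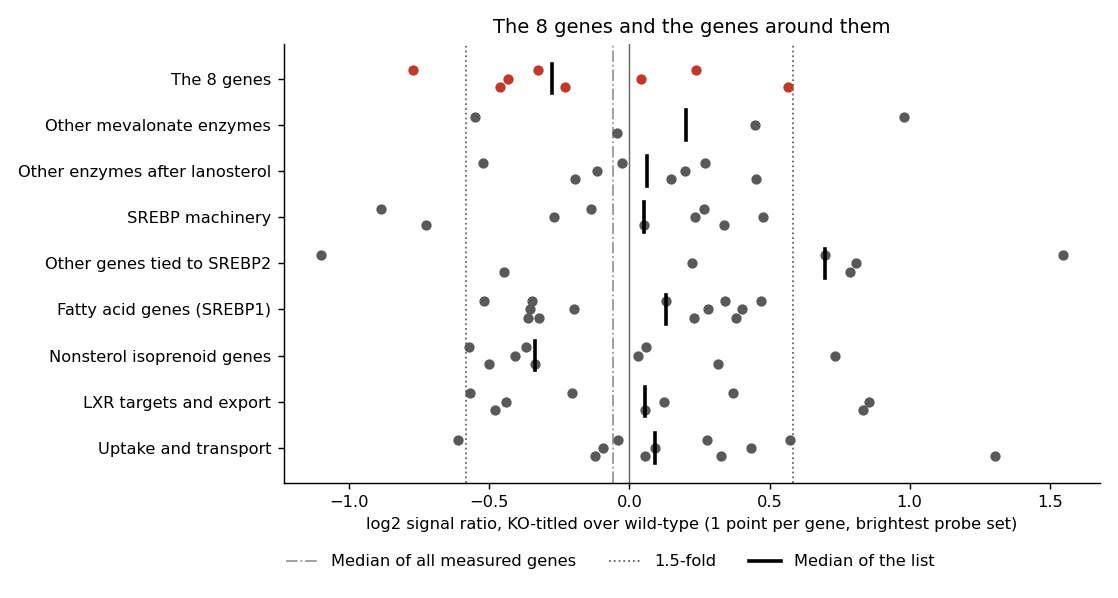
The log2 ratio of KO-titled over wild-type signal, 1 point per gene by its brightest probe set, for the 8 genes (red, top row) and 8 lists of related genes, with list medians as black bars. The 8 genes run from -0.77 to 0.57 with a median of -0.28, and the lists run from a median of -0.34 for nonsterol isoprenoid genes to 0.70 for other genes tied to SREBP2.

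Fatty acid genes under SREBP1 all lay within 1.5-fold by their brightest probe sets, 13 of 13, with a median of 0.13. Other probe sets went further: those of Acly ran from -0.89 to 0.13, and those of the elongase gene Elovl6 from -0.89 to -0.35. Fasn, the fatty acid synthase gene, and Scd1, a desaturase gene, were highest at 0.47 and 0.40, and Acss2, which makes acetyl-CoA from acetate, and Acly, which makes it from citrate, were lowest at -0.52 and -0.36. Scd2, the main stearoyl-CoA desaturase of the mouse brain, gave 28202 units in the KO-titled pool and 23054 units in the wild-type pool, a ratio of 0.28. Genes of the nonsterol branches that draw on the Fdps product centred on -0.34, and 1 of 9 passed 1.5-fold upward and 0 downward. Rabggtb, a subunit of the transferase that prenylates Rab proteins, was the higher one at 0.73. Pggt1b and Fnta, subunits of other prenyl transferases, were lowest at -0.57 and -0.50, and the 3 Pggt1b probe sets ran from -1.96 to 1.92.

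Genes that export cholesterol under the oxysterol receptor LXR centred on 0.06, and 2 of 9 passed 1.5-fold upward in the KO-titled pool and 0 downward. These were the transporter genes Abca1 and Abcg1. Abca1 gave 3125.9 units in the KO-titled pool and 1740.6 units in the wild-type pool, a ratio of 0.83, and its other measured probe set had -0.27. Abcg1 gave 1462 units in the KO-titled pool and 802.6 units in the wild-type pool, a ratio of 0.85, and its second probe set also lay above 1.5-fold at 0.63. Apoe, the main apolipoprotein gene of the brain, had -0.44, and Cyp46a1, the neuronal enzyme that turns cholesterol into an oxysterol for removal, had 0.12. Lcat, which esterifies lipoprotein cholesterol, and Nr1h3, an LXR gene, were lowest at -0.57 and -0.48.

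Among uptake and transport genes, 1 of 11 passed 1.5-fold upward and 1 downward, around a median of 0.09. Npc1, which moves cholesterol out of lysosomes, gave 1050.3 units in the KO-titled pool and 421.9 units in the wild-type pool on its only probe set. Its ratio of 1.30 stood 2.47-fold higher, whereas Npc2, its partner in the lysosome, had 0.33 with another probe set at -0.38. Stard3 was lower at -0.61.

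In bulk tissue, fewer cells of a type and less RNA per cell cannot be told apart, and the cell types that make most brain cholesterol are glia. Over all measured genes, 18.3% passed 1.5-fold downward in the KO-titled pool and 12.5% upward. Of 10 measured oligodendrocyte markers, 2 passed it downward, near that share, and 0 upward, around a median of -0.24. Their summed signal was 69553 units in the KO-titled pool and 80688 units in the wild-type pool. Of the 10, 3 had ratios above 0 and 7 below. The myelin gene Mag was at 0.17, while Ermn was lowest at -0.87 and Cldn11 highest at 0.24. Mobp, the other marker past 1.5-fold, had -0.76, and its measured probe sets ran from -1.27 to -0.14. Of 12 astrocyte markers, 4 passed it downward and 0 upward, around a median of -0.11, summing to 79366 units in the KO-titled pool and 84563 units in the wild-type pool. S100b was lowest at -1.23 and Slc4a4 highest at 0.21. Of the 4 lower ones, Gfap and S100b lay below 0 on all measured probe sets. Probe sets of Aqp4 ran from -1.33 to 1.60, and those of Slc1a3 from -1.13 to 0.34. They also disagreed for Slc1a2 (-0.33 to 3.88), Slc4a4 (0.21 to 3.17) and Gja1 (-0.55 to 1.66). Of 10 measured microglia markers, 6 passed it downward and 1 upward, around a median of -0.89, with sums of 13200 units in the KO-titled pool and 15762 units in the wild-type pool. Fcrls was lowest at -2.04 and Cx3cr1 highest at 1.97. Of these 3 lists, Gjc3 and Trem2 were below the floor in the KO-titled pool alone. Neuron markers were above the floor in both pools for 12 of 12 genes, and 1 passed 1.5-fold downward and 0 upward. Their median was -0.06, from -1.78 for Nefl to 0.20 for Slc17a7, by brightest probe sets. Probe sets disagreed for Map2 (-2.12 to 2.38), Syt1 (-0.42 to 2.44) and Gad2 (0.06 to 2.01). Endothelial markers had a median of 0.16, with 0 of 8 past 1.5-fold, from -0.31 for Tek to 0.53 for Flt1. The part of these differences in the ratios of the 8 genes was not tested.

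The pools also differed in ways not set by the pathway. The pituitary genes Gh, Pomc, Prl, Cga, Lhb and Ghrhr were lower in the KO-titled pool, with Gh at 200 units there and 23223 units in the wild-type pool. Tshb, the other pituitary marker above the floor, had -0.31. The list summed to 810 units in the KO-titled pool and 31485 units in the wild-type pool. Of its 10 genes, 7 were below the floor in the KO-titled pool and 3 in the wild-type pool. Ghrhr was near the floor, at 34 units in the KO-titled pool and 78.5 units in the wild-type pool. The median signal was 124.9 units in the KO-titled pool and 92 units in the wild-type pool. Gnmt itself gave 21.5 units in the KO-titled pool and 10 units in the wild-type pool, both below the floor, so it did not check the titles. The part of these differences in the ratios of the 8 genes was not tested.

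**Figure D4:**
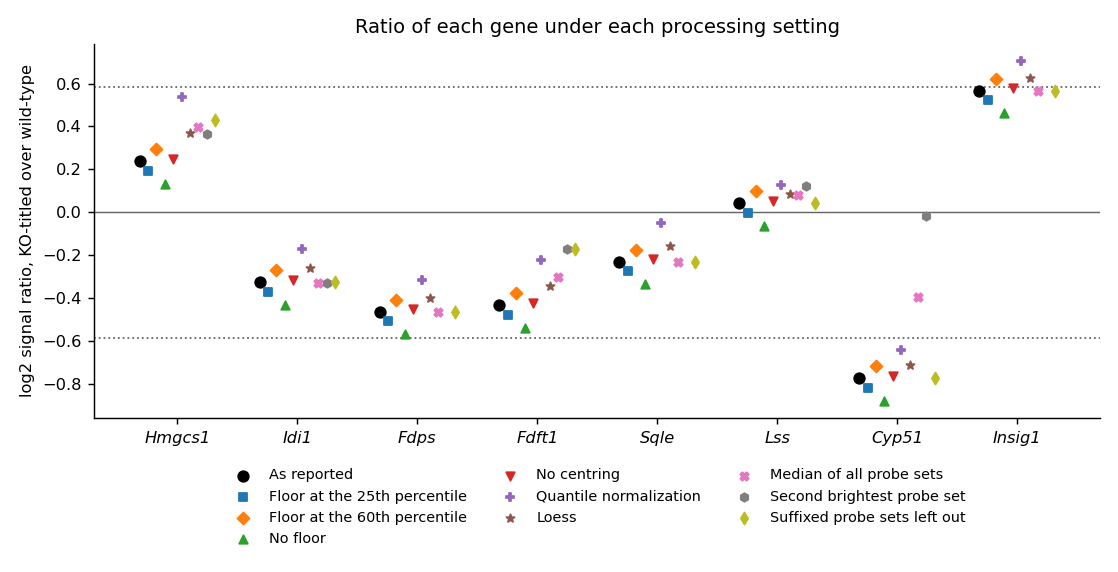
The log2 ratio of KO-titled over wild-type signal of each of the 8 genes as reported (black circles) and under 9 other processing settings (coloured marks), with dotted lines at 1.5-fold. Hmgcs1 and Insig1 stayed above 0 and Idi1, Fdps, Fdft1, Sqle and Cyp51 below 0 under every setting drawn, while Lss lay on either side of 0 and Cyp51 moved to -0.02 with its second brightest probe set.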

How the data were processed

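RNA of cerebral cortex was labelled with biotin from 5 micrograms, per the labels' protocols. The deposited values are linear intensities, 1 per probe set and array, and the submitters' processing notes name GCOS. The sources used here give no signal algorithm, version or detection calls. Each array's mean was 500.0 in the deposited table once 2% of its values had been trimmed from both ends.

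The floor was set at the 40th percentile of the signals of both arrays, controls left out. The platform annotation gave 1 symbol for 34945 probe sets, several for 932 and none for 9160. Symbols were updated through RefSeq (GRCm38.p6), which held 34741 of the 34945. A gene below the floor on 1 array has a lower bound, the other signal over the floor. Centring subtracted 0.01 (log2).

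The 8 genes, the lists and the naming rule were chosen with earlier results of these data known. The rule named every member, list genes past 1.5-fold (or else the 2 highest and 2 lowest) and marker extremes. Pathway genes named beyond it (Mvk, Pmvk, Mvd, Msmo1, Sc5d, Srebf1, Srebf2, Scap, Insig2, both Mbtps genes, Scd2, Pggt1b, Fnta, Apoe, Cyp46a1, Lcat, Nr1h3, Npc2, Mag) were added after their values were seen. So were the fatty acid gene Elovl6 and the myelin gene Mobp. The same holds for the astrocyte genes Gfap, Aqp4, Slc1a3, Slc1a2 and Gja1 and the neuron genes Map2, Syt1 and Gad2. Ubxn8 was listed in error for another UBX domain gene. Some listed genes are not reported here. The calculations were tested on simulated data. Alternatives covered floor, scaling and choice of probe set. Tools were Python 3.11.15, matplotlib 3.10.9, numpy 2.4.6, scipy 1.17.1, pandas 2.3.3 and statsmodels 0.14.6. Precision is limited by the number of arrays.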

Additional observations from a re-analysis of the deposited data

How the results depend on the processing

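Across 9 alternatives (floor at the 25th or 60th percentile or none, no centring, quantile normalization, loess, median or second brightest probe set, suffixed probe sets left out), the median log2 ratio of the 8 genes ran from -0.38 to -0.02 and stayed below 0. That of all genes ran from -0.14 to -0.01. The count of genes at least 1.5-fold lower in the KO-titled pool was 0 with the median of all probe sets and 0 with the second brightest, where 5 of the 8 genes have a value, because Cyp51 is then at -0.40 and -0.02. It was 1 elsewhere. The count at least 1.5-fold higher was 1 with a floor at the 60th percentile, 1 with quantile normalization and 1 with loess, each time Insig1. The sign of Lss alone among the 8 genes turned, to -0.06 with no floor. The medians of the related lists moved by less than the probe set error SD of 0.58 under all 9. That SD describes single probe sets and is a wide limit for a median of several genes. The median of other genes tied to SREBP2, 0.70 as reported, ran from 0.18 to 0.76. Signs turned under 3 settings each for export and uptake genes, 2 for enzymes after lanosterol, and 1 each for mevalonate, SREBP machinery and fatty acid genes. No paired analysis was possible because each genotype has 1 array. Leaving out a replicate was not possible for the same reason. Signals near the floor limit what can be read from the dim probe sets.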

Other observations

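Among probe sets above the floor in 1 pool alone, those of the KO-titled pool were the more frequent kind, both around the pathway and over the whole series. Of 175 probe sets of the 8 genes and the related lists, 10 were above the floor in the KO-titled pool alone, in 9 genes, and 1 in the wild-type pool alone, that of Abca1. Over all 34945 probe sets with 1 gene, 2613 were above the floor in the KO-titled pool alone and 1423 in the wild-type pool alone. The share above it in the KO-titled pool alone was thus no larger around the pathway than over all probe sets. The largest lower bounds belonged to Fads1, a fatty acid desaturase gene, at 369 units in the KO-titled pool and 48.7 units in the wild-type pool (at least 5.70-fold higher), and Lrp1, an endocytic lipoprotein receptor gene, at 329.6 units in the KO-titled pool and 54.6 units in the wild-type pool (at least 5.09-fold). Elovl6, an elongase gene, followed at 252.4 units in the KO-titled pool and 51.4 units in the wild-type pool (at least 3.90-fold), and then Hmgcs1 (at least 3.49-fold). The brightest probe sets of these 4 genes had log2 ratios of 0.34, 0.57, -0.35 and 0.24, each within 1.5-fold. These genes were picked after their values were seen.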
